A study of Rattus norvegicus with 30 samples.

Results

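Gene expression in the cervical spinal cord of 5 rats killed 3 weeks after a thoracic spinal cord injury was compared with that of 10 sham-operated rats. In the edgeR test no gene passed the adjusted threshold, with all 5 injured rats or without 1 rat that lay far from its group, while DESeq2 called 1 gene with all 5 rats. The 15 libraries were taken from the 30 of the series by their titles. The injured rats are those titled as injured at week 3 (5 libraries), and the reference is the mean of both sham groups, killed at week 1 (5 libraries) and week 12 (5 libraries). No sham group of week 3 was used, so the time since surgery differs between the injured rats and each sham group.

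All rats were adult females (over 10 weeks old) of the strain Long Evans Crl:LE, and each library holds the RNA of 1 rat. A slice of cord was taken at vertebral level C3, above the lesion, and its intermediate laminae (IV to VII) were dissected on both sides. The 15 other libraries come from injured rats killed at weeks 1, 6 and 12, 5 of each. Per the design text, the 5 rats of each group were picked from more animals by the quality and amount of their RNA, and rats with too small a lesion had been left out. The first sham rat of week 1 is a control by title and description, but its surgery and source fields name an injury, and it was kept as sham.

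The corticospinal tract carries motor commands down from the cortex and, in rats, ends largely on interneurons of the intermediate gray matter. A thoracic injury cuts the fibres that serve the hindlimbs, while their upper course through the cervical cord survives. Such cut fibres are known to grow side branches into the cervical gray matter over the following weeks, and the series title names this region as their target. Tissue pieces of this kind hold neurons, glia and vessel cells together, so fewer cells of a type and less RNA per cell cannot be told apart.

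The deposited tables identify genes by Ensembl number only and do not pair them with names. None of the 32545 identifiers could be matched to a symbol, so genes are given by number, their roles are not stated, and the markers of the tissue could not be checked. The total of injured replicate 1 was 8097495 counts, written as 8.10 M, and those of replicates 2 to 5 were 16.2, 15.1, 14.7 and 11.3 M. Sham totals ran from 10.6 to 37.4 M. The total, the number of genes with a count and the share of counts held by the 10 most abundant genes were compared by exact two-sided permutation tests over 3003 splits. The injured libraries averaged 13.1 M ± 3.33 (SD, n = 5) against 18.1 M ± 7.82 (n = 10) in shams (exact permutation p = 0.135, adjusted p = 0.203 over 3 tests). They held counts for 17307 ± 386 genes (n = 5) against 17760 ± 456 (n = 10, exact permutation p = 0.0713, adjusted p = 0.203). The share of the 10 most abundant genes was 10.8% ± 1.03 (n = 5) against 11.3% ± 0.914 (n = 10, exact permutation p = 0.312, adjusted p = 0.312). None of the 3 passed, although the injured mean was below the sham mean in each. Without injured replicate 1 the exact permutation p was 0.342, 0.214 and 0.204 in the same order (1001 splits). The injured mean was again below the sham mean in each.

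Replicate 1 of the injured 3 week group stood apart from its group. On the first principal component, the axis of largest variation among the 30 libraries (8.37% of the variance), it lay at 42.3. The other 4 rats of its group lay at -0.446, -1.16, -12.9 and -4.56, the shams between -12.3 and 10.5, and all 29 others between -21.2 and 12.3. Of 11173 genes with a mean of at least 5 CPM (reads per gene relative to the library total, corrected by TMM factors), 622 (5.57%) lay at least 1.5-fold from the median of the other 4 rats of the group, 182 above it and 440 below. The same count was 192, 211, 373 and 317 for replicates 2 to 5 and 118 to 247 for the shams. This rat was the highest of all 30 in 1060 of those genes and the lowest in 1149, against at most 430 and 499 for any sham. Injured 12 week replicate 2 was similar in this respect, highest in 1061 and lowest in 909. Its total of 8.10 M counts was the smallest of the 15 libraries compared. Injured 12 week replicate 2, with 8.13 M counts, deviated in 464 genes, whereas injured 6 week replicates 1 and 2, with 6.46 and 7.04 M, deviated in 277 and 238. The part of depth in the position of replicate 1 was not tested. That replicate 1 lies far from its group was known when the comparisons were planned. The plan therefore gave the main results with this rat and without it, and the values above only describe it.

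**Figure D1:**
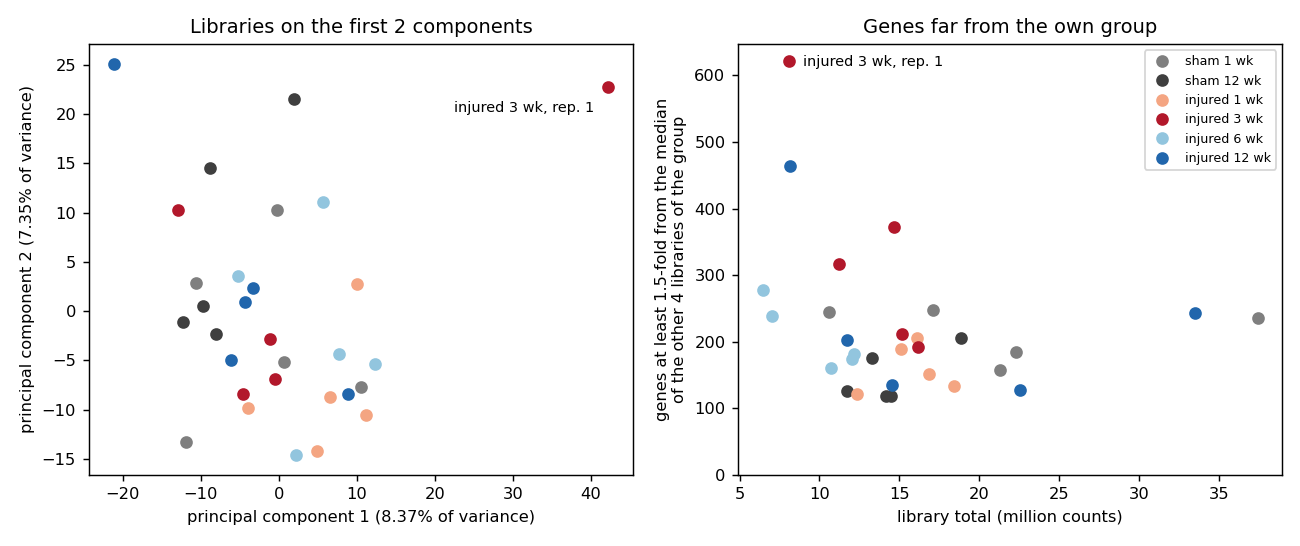
Left, the position of each of the 30 libraries on the first 2 principal components of log2 CPM. Right, for each library, the number of genes at least 1.5-fold from the median of the other 4 libraries of its group (vertical) against the library total (horizontal, M counts). Points are single rats, coloured by group. Injured 3 week replicate 1 is labelled and lies at 42.3 on the first component and at 622 genes.

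The first comparison asked which genes of this region differ 3 weeks after injury. Of 14801 genes tested, 0 (0%) passed an adjusted p under 0.05 (edgeR quasi-likelihood test with Benjamini-Hochberg adjustment, smallest adjusted p = 0.462), and 0 passed at 0.1. At an unadjusted p under 0.05 there were 1052 genes (7.11%), of which 556 had a higher and 496 a lower fitted level in injured rats. Under 0.01 there were 231 (1.56%), and under 0.001 there were 19 (0.128%). DESeq2 on the same counts called 1 gene, ENSRNOG00000001602, described further on.

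Fitted differences were small. The absolute log2 fold change had a median of 0.08 over all genes tested, and 90% of the genes lay below 0.29. Among the 1052 genes the median was 0.23, 159 genes reached 1.5-fold and 32 reached 2-fold. Without replicate 1 there were 700 genes at an unadjusted p under 0.05, with a median of 0.30. Of these 700, 182 reached 1.5-fold and 51 reached 2-fold. Of the 32 genes with all 5 rats, 28 averaged under 1 CPM, 4 lay between 1 and 5 CPM, and 0 lay at 5 CPM or more. The outermost fitted value, a log2 fold change of -5.95, belonged to ENSRNOG00000060523, a gene singled out after its values were seen. All 5 injured 3 week libraries held at most 1 read of it, while 3 of the 5 shams of week 1 and 1 of the 5 shams of week 12 also held at most 1 read, and the other shams held 38 to 147. Its fitted value therefore rests on counts at or next to 0 and is no bound (edgeR adjusted p = 0.636).

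**Figure D2:**
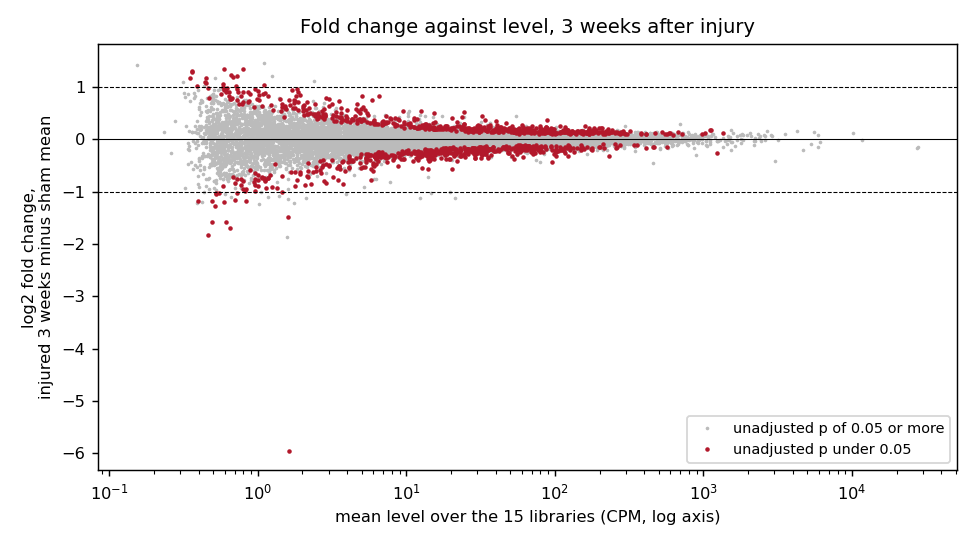
Each point is 1 of the 14801 genes tested. The horizontal log axis gives the mean level over the 15 libraries in CPM and the vertical axis the fitted log2 fold change, injured 3 weeks minus the mean of both shams. Dashed lines mark 2-fold. The 1052 genes with an unadjusted p under 0.05 are in red, and those beyond the dashed lines all average under 5 CPM.

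How large a difference could have been missed depended on the level of the gene. The median standard error of a log2 fold change was 0.40 for the 1113 genes under 1 CPM, 0.19 for the 4099 genes from 1 to 10 CPM, 0.08 for the 7508 genes from 10 to 100 CPM and 0.06 for the 2081 genes above 100 CPM. The 95% interval lay within 1.5-fold in either direction for 98.1% of the genes from 10 to 100 CPM and for 99.5% of those above 100 CPM. From 1 to 10 CPM it lay within 1.5-fold for 56.5% and within 2-fold for 90.9%. Under 1 CPM only 33.2% had an interval within 2-fold, so for most of those genes a 2-fold difference was not excluded. Over all tested genes the share within 2-fold was 92.3%. Without replicate 1 it was 90.3% over the 14929 genes then tested, and 26.6% over the same 1113 genes under 1 CPM. Genes that passed the filter only without replicate 1 were left out of the classes by level.

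The share of genes with an unadjusted p under 0.05 with all 5 rats was 6.29% under 1 CPM, 6.78% from 1 to 10, 7.22% from 10 to 100 and 7.78% above 100 CPM. Among the most abundant genes the direction was uneven, with 114 of those 162 genes at a higher fitted level in injured rats and 48 at a lower one. From 10 to 100 CPM the numbers were 258 and 284. Without replicate 1, over the same genes as with all 5 rats, the shares were 6.29%, 5.78%, 4.42% and 2.74% in the same order. The share was thus lower at each higher level. Above 100 CPM there were then 41 genes higher and 16 lower.

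Complete separation of the groups was rare. In 18 of the 14801 genes (0.122%) all 5 injured rats lay beyond all 10 shams, 12 above (0.0811%) and 6 below (0.0405%). The absolute log2 fold changes of these genes ran from 0.11 to 1.83 with a median of 0.45, and 3 of the 18 reached 2-fold. Their mean levels over the 15 libraries ran from 0.465 to 109 CPM. Counting the 4 injured rats other than replicate 1, the number was 35 (0.236%), 23 above and 12 below, which by construction holds the 18. Complete separation also arises by chance, and more often with 4 injured rats than with 5. The chance share was not computed, so the rise from 18 to 35 is not read as more separation.

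The 4 identifiers described in full are the 2 with the smallest p in each direction, and 0 of these 4 passed the edgeR threshold.

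ENSRNOG00000001602 had the smallest p of all genes. Its level was 143, 116, 117, 113 and 119 CPM in injured replicates 1 to 5. It was 97.4, 106, 98.8, 105 and 113 CPM in the shams of week 1 and 101, 103, 101, 99.8 and 99.8 CPM in those of week 12. All 5 injured rats lay above all 10 shams, though the lowest injured rat (113.3 CPM) and the highest sham (112.9 CPM) nearly met. Means were 122 ± 12.1 (SD, n = 5) and 102 ± 4.57 CPM (n = 10), a log2 fold change of 0.25 (SE 0.05, 95% interval 0.14 to 0.35, edgeR adjusted p = 0.462). Without replicate 1, the highest rat, the log2 fold change was 0.19 (edgeR adjusted p = 0.928). With DESeq2 it was 0.25 with 5 rats (DESeq2 adjusted p = 0.0473), the only call of that tool against both shams. In the other injured groups the level averaged 111 ± 5.48 CPM at week 1, 113 ± 8.61 at week 6 and 104 ± 3.72 at week 12 (n = 5 each).

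For ENSRNOG00000009730 the injured rats held 55.8, 57.0, 59.1, 53.3 and 44.1 CPM. The shams ran from 39.6 to 46.1 CPM, so 4 of 5 injured rats lay above all shams and replicate 5 lay among them. Means were 53.9 ± 5.84 (n = 5) and 43.3 ± 2.39 CPM (n = 10), with a log2 fold change of 0.32 (SE 0.07, 95% interval 0.17 to 0.46, edgeR adjusted p = 0.498). Without replicate 1 the fold change was 0.31 on the log2 scale (edgeR adjusted p = 0.694), nearly the value with all 5 rats. Rats killed 1 week after injury averaged 53.4 ± 2.39 CPM, against 46.5 ± 5.09 at week 6 and 43.2 ± 5.87 at week 12 (n = 5 each).

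ENSRNOG00000015703 stood at 27.2, 29.1, 26.0, 26.9 and 31.5 CPM in injured rats. The shams of week 1 held 35.0, 27.7, 35.2, 33.6 and 34.3 CPM and those of week 12 held 34.1, 36.6, 38.1, 40.2 and 31.4 CPM. The groups overlapped, with 3 injured rats below all shams and 1 sham of each week (27.7 and 31.4 CPM) within the injured range. Means were 28.1 ± 2.18 (n = 5) and 34.6 ± 3.46 CPM (n = 10), with a log2 fold change of -0.30 (SE 0.07, 95% interval -0.44 to -0.16, edgeR adjusted p = 0.498). Leaving out replicate 1 gave -0.29 (edgeR adjusted p = 0.903). The other injured groups averaged 29.5 ± 1.39 CPM at week 1, 33.6 ± 3.45 at week 6 and 31.4 ± 1.82 at week 12 (n = 5 each).

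ENSRNOG00000001859 showed the largest fitted difference of the 4. Injured rats held 7.96, 10.6, 9.08, 11.9 and 9.16 CPM. The shams of week 1 held 14.995, 8.80, 11.5, 17.6 and 12.6 CPM and those of week 12 held 16.1, 14.2, 13.0, 17.8 and 16.8 CPM. All 5 injured rats lay below every sham of week 12, whereas 2 shams of week 1 fell within the injured range. Means were 9.73 ± 1.52 (n = 5) and 14.3 ± 2.90 CPM (n = 10), a log2 fold change of -0.54 (SE 0.13, 95% interval -0.80 to -0.29, edgeR adjusted p = 0.498). Against the shams of week 1 alone the value was -0.42 and against those of week 12 alone it was -0.67. Without replicate 1, the lowest rat, it was -0.49 (edgeR adjusted p = 0.955). The other injured groups averaged 7.95 ± 1.36 CPM at week 1, 13.4 ± 1.85 at week 6 and 14.0 ± 1.66 at week 12 (n = 5 each). The mean at week 1 was thus below that at week 3.

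**Figure D3:**
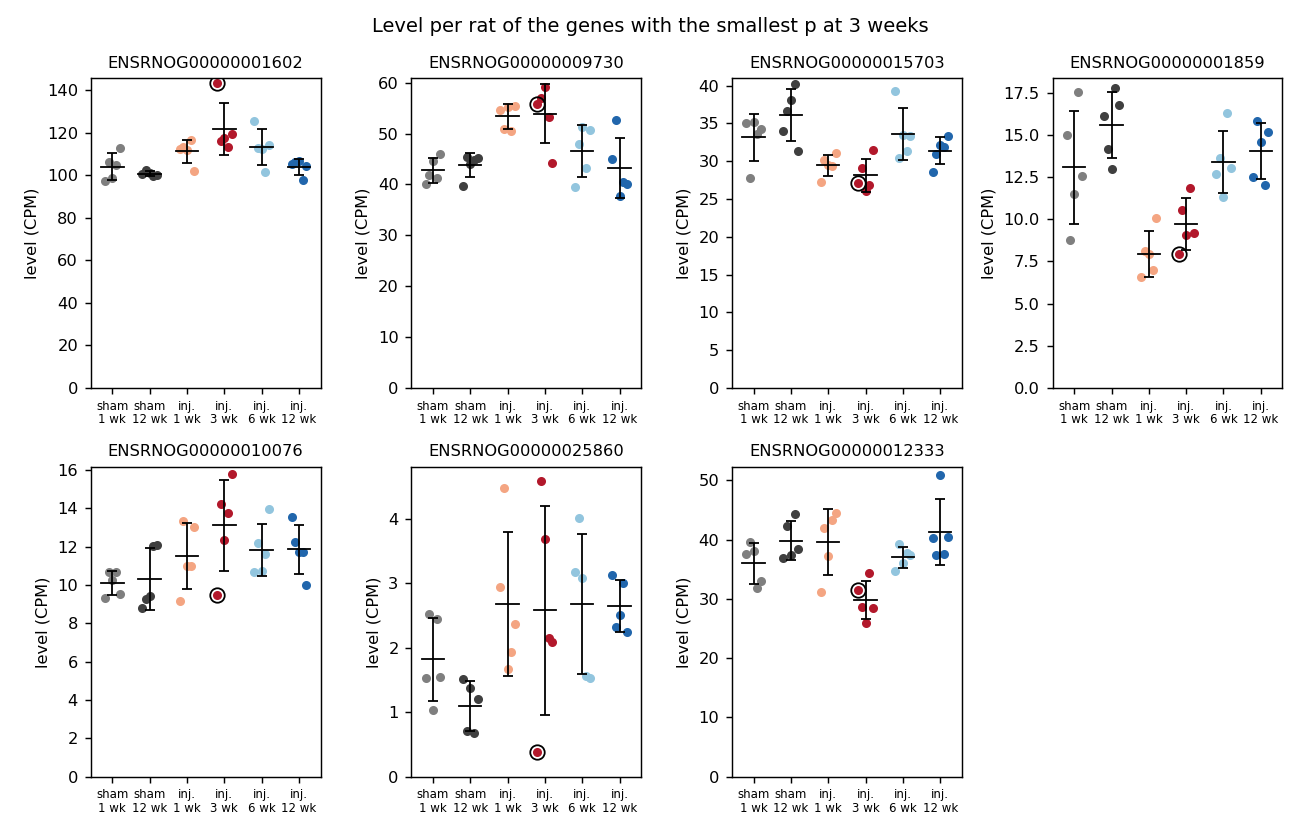
Level in CPM (vertical axes, from 0) of the 7 genes with the smallest p in the comparisons with both shams, with and without replicate 1. Points are single rats by group and week, bars are the mean and SD (n = 5), and a ring marks injured (inj.) 3 week replicate 1. The rat is the highest of its group for ENSRNOG00000001602 and the lowest for ENSRNOG00000001859, ENSRNOG00000010076 and ENSRNOG00000025860.

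The second comparison left out replicate 1 and fitted the remaining 29 libraries anew. Of 14929 genes tested, 0 (0%) passed the adjusted threshold (edgeR, smallest adjusted p = 0.694), and DESeq2 called 0. At an unadjusted p under 0.05 there were 700 genes (4.69%), 418 higher and 282 lower. The number under 0.01 was 143 (0.958%) and under 0.001 it was 13 (0.0871%). With replicate 1 the unadjusted p values crowded towards 0, and without it they were spread nearly evenly, each of 20 equal classes of p holding between 4.62% and 5.44% of the genes. When each of the other 14 rats was left out in turn, the number of genes with an unadjusted p under 0.05 stayed between 913 and 1422, so no other single rat brought it as low. Without injured replicates 2, 3, 4 and 5 it was 998, 988, 1337 and 1422.

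**Figure D4:**
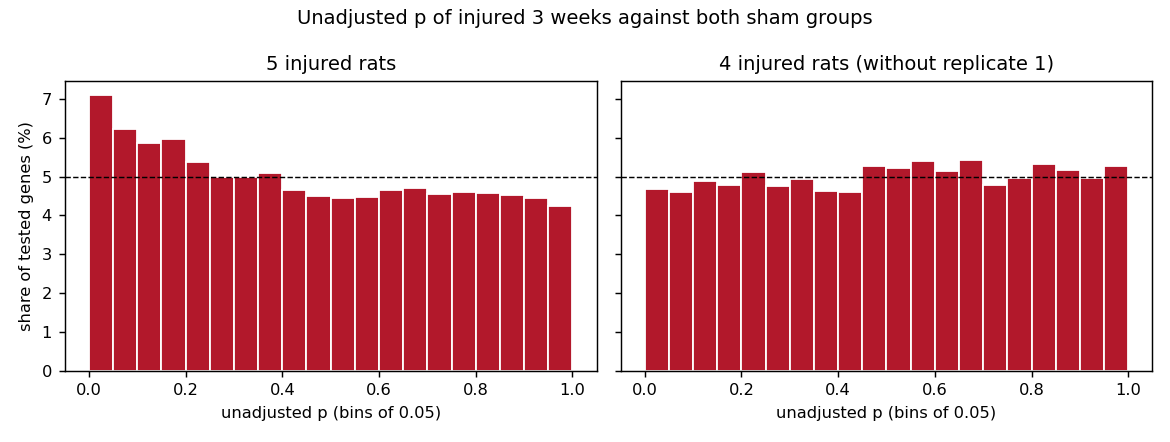
Share of tested genes (vertical, %) in 20 classes of the unadjusted p (horizontal, width 0.05), for injured 3 weeks against both shams. The left panel has 5 injured rats and 14801 genes, the right panel 4 injured rats and 14929 genes. The dashed line marks an even spread at 5%, and the first class holds 7.11% on the left and 4.69% on the right.

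The 2 sets of genes overlapped in part. Of the 1052 genes with all rats, 492 also had an unadjusted p under 0.05 without replicate 1, which is 46.8% of the larger set and 70.3% of the 700. Both sets rest on the same 10 shams and share 4 injured rats, which favours an overlap. The 1052 genes had a median absolute log2 fold change of 0.23 with all 5 rats. Their median change in the same direction was 0.20 without replicate 1. Replicate 1 was the injured rat farthest out in the direction of the difference in 538 of the 1052 genes (51.1%), against 146, 136, 147 and 88 for replicates 2 to 5. Of the 560 genes that no longer had an unadjusted p under 0.05, it had been the farthest in 425. The 1052 genes were picked with replicate 1 in the test and the 560 by its removal. Both choices favour such counts, so they describe the sets and are no separate evidence about this rat. The median over genes of the SD of log2 CPM among injured rats was 0.20 with replicate 1 and 0.17 without it, against 0.16 in the shams of week 1 and 0.14 in those of week 12.

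Without replicate 1 the 2 genes of smallest p with a higher level were ENSRNOG00000010076 and ENSRNOG00000025860, and the 2 with a lower level were ENSRNOG00000012333 and ENSRNOG00000015703, the latter given above.

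ENSRNOG00000010076 was at 14.2, 12.4, 13.8 and 15.8 CPM in injured replicates 2 to 5 and at 9.48 CPM in replicate 1. The 10 shams ran from 8.79 to 12.1 CPM with a median of 9.91. All 4 rats lay above every sham and replicate 1 lay among them. The log2 fold change was 0.46 without replicate 1 (SE 0.11, 95% interval 0.25 to 0.67, edgeR adjusted p = 0.694) and 0.37 with it (edgeR adjusted p = 0.636). The other injured groups averaged 11.5 ± 1.72 CPM at week 1, 11.8 ± 1.36 at week 6 and 11.8 ± 1.27 at week 12 (n = 5 each).

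ENSRNOG00000025860, a gene of low level, held 4.60, 3.68, 2.15 and 2.09 CPM in replicates 2 to 5 and 0.379 CPM in replicate 1. The shams ran from 0.685 to 2.53 CPM, so 2 of the 4 rats lay above them and replicate 1 lay below them all. The means without replicate 1 were 3.13 ± 1.22 (n = 4) and 1.46 ± 0.627 CPM (n = 10). The log2 fold change was 1.19 (SE 0.28, 95% interval 0.63 to 1.75, edgeR adjusted p = 0.694), and 0.95 with replicate 1 (edgeR adjusted p = 0.636). Against the shams of week 1 alone the value without replicate 1 was 0.84, and against those of week 12 alone it was 1.53. Its mean was 2.68 ± 1.12 CPM at week 1 after injury, 2.68 ± 1.09 at week 6 and 2.65 ± 0.404 at week 12 (n = 5 each).

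ENSRNOG00000012333 held 31.6, 28.6, 25.9, 34.4 and 28.5 CPM in injured replicates 1 to 5. The shams of week 1 held 37.5, 39.7, 38.2, 31.8 and 32.9 CPM and those of week 12 held 36.9, 42.3, 37.4, 44.3 and 38.4 CPM. Of the 5 injured rats 4 lay below all shams, and replicate 4 lay within the range of week 1. The log2 fold change was -0.37 without replicate 1 (SE 0.09, edgeR adjusted p = 0.694) and -0.35 with it (SE 0.08, edgeR adjusted p = 0.552).

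The choice of sham group was examined because neither matches the injured rats in time. Against the shams of week 1 alone, 0 genes passed (0%, edgeR, smallest adjusted p = 0.583) and 1092 (7.38%) had an unadjusted p under 0.05. Against those of week 12 alone, 0 passed (0%, edgeR, smallest adjusted p = 0.182) and 1144 (7.73%) had an unadjusted p under 0.05. Of the 1052 genes of the pooled reference, 209 had an unadjusted p under 0.05 against each sham group, 361 against week 1 alone, 400 against week 12 alone and 82 against neither. Without replicate 1 the numbers over all genes were 876 (5.87%) against week 1 and 788 (5.28%) against week 12. The 2 sham groups themselves differed in 0 genes (0%, edgeR, smallest adjusted p = 0.199), with 1219 (8.24%) at an unadjusted p under 0.05. All these comparisons share libraries. With the sham rat of conflicting labels left out, 0 genes passed and 1014 had an unadjusted p under 0.05. Counted with the injured rats of week 1 it left 0 and 989.

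A further comparison set the 5 rats of week 3 against the 15 injured rats of weeks 1, 6 and 12, to see whether any gene was particular to this time after injury. Of 14801 genes 0 (0%) passed (edgeR, smallest adjusted p = 0.195), and 574 (3.88%) had an unadjusted p under 0.05, 306 higher and 268 lower at 3 weeks. In 0 genes (0%) did all 5 rats lie beyond all 15. Without replicate 1 there were 0 calls and 873 genes (5.85%) with an unadjusted p under 0.05 (edgeR, smallest adjusted p = 0.37). DESeq2 called 1 gene, and edgeR called the same gene once injured 1 week replicate 1 was left out.

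That gene was ENSRNOG00000012333, whose values in the week 3 rats and the shams are given above. The 15 other injured rats held 31.1 to 51.0 CPM with a median of 37.7. Means were 29.8 ± 3.27 (n = 5) and 39.3 ± 4.68 CPM (n = 15), with a log2 fold change of -0.40 (SE 0.08, 95% interval -0.56 to -0.24, edgeR adjusted p = 0.195). Without injured 1 week replicate 1, the lowest of the 15 at 31.1 CPM, it was -0.43 (edgeR adjusted p = 0.0198), and DESeq2 on all rats gave -0.40 (DESeq2 adjusted p = 0.0175). Without injured 3 week replicate 1 the value was -0.42 (edgeR adjusted p = 0.37). Without replicate 2 or 5 of that group it was -0.39 (edgeR adjusted p = 0.9997 and 0.642), and without replicate 3 it was -0.35. Without replicate 4 it was -0.46 (edgeR adjusted p = 0.0656), so the adjusted p depended strongly on single rats. Over the weeks its mean was 39.6 ± 5.52 at week 1, 29.8 at week 3, 37.002 ± 1.76 at week 6 and 41.3 ± 5.59 CPM at week 12 (n = 5 each).

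The other 3 identifiers of smallest p in this comparison did not pass in edgeR. ENSRNOG00000058157 held 3.79, 3.48, 4.14, 3.89 and 4.54 CPM in the rats of week 3 against 2.71 ± 0.606 CPM in the other injured rats (n = 15, range 1.98 to 4.38), a log2 fold change of 0.57 (SE 0.14, edgeR adjusted p = 0.732). The shams averaged 3.26 ± 0.523 CPM (n = 10), between both. ENSRNOG00000033251, with few reads, held 1.52, 1.74, 1.2497, 2.08 and 0.0872 CPM against 0.327 ± 0.235 CPM (n = 15), with a log2 fold change of 2.12 (SE 0.50, edgeR adjusted p = 0.732). Replicate 5 lay among the other injured rats and the remaining 4 above them. ENSRNOG00000010617 held 6.82, 7.95, 9.14, 5.84 and 8.29 CPM against 10.9 ± 1.32 CPM (n = 15, range 8.95 to 13.5), with a log2 fold change of -0.52 (SE 0.13, edgeR adjusted p = 0.732). Replicate 3 overlapped with the lowest of the other injured rats.

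The 2 genes in each direction with the largest log2 distance between replicate 1 and the median of the other 4 rats are given as a description of that library, with no test. ENSRNOG00000005826 was at 19.3 CPM in replicate 1 and at 0.248, 28.9, 0.201 and 0.174 CPM in replicates 2 to 5. Replicate 3 lay above it, so replicate 1 was within the range of the others. ENSRNOG00000043197 was at 11.0, 0, 16.4, 29.7 and 0 CPM, so 3 rats had it, 2 were listed at 0, and replicate 1 was again within the range of the others. ENSRNOG00000055608 was at 1.14 CPM in replicate 1 and at 16.5, 15.5, 31.6 and 17.3 CPM in the others. ENSRNOG00000005659 was at 0.884 CPM in replicate 1 and at 10.6, 4.01, 5.17 and 5.15 CPM in the others, with shams between 1.254 and 9.64 CPM. The first 3 of these genes had 2 separate levels in the shams as well, so the value of replicate 1 lay at a level that other rats also had.

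**Figure D5:**
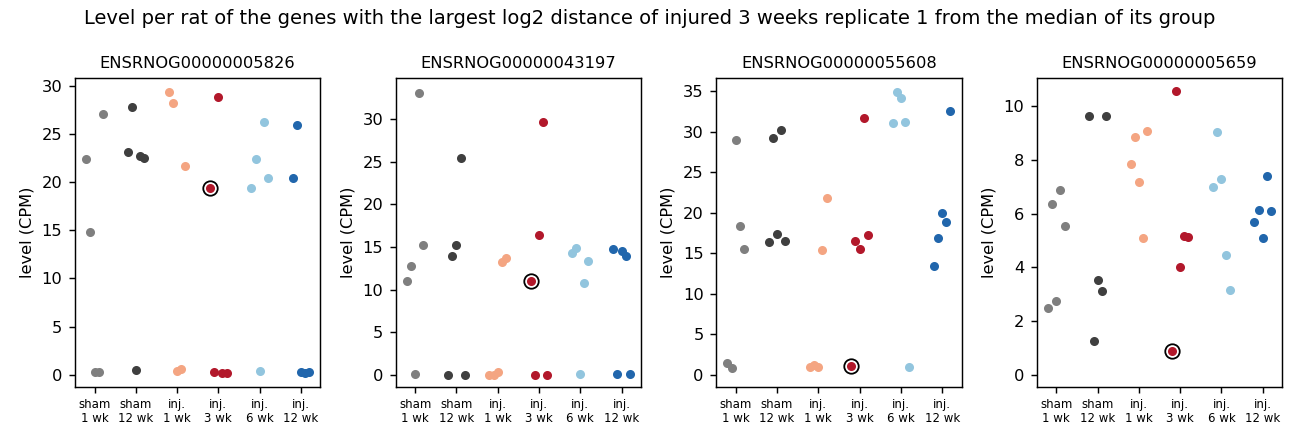
Level in CPM (vertical axes) of the 4 genes with the largest log2 distance between injured (inj.) 3 week replicate 1, which is ringed, and the median of the other 4 rats of its group. Points are single rats and groups are ordered by surgery and week. ENSRNOG00000005826, ENSRNOG00000043197 and ENSRNOG00000055608 fall into a high and a low level in several groups, while ENSRNOG00000005659 shows a continuous range.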

How the data were processed

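Ribosomal RNA was removed and libraries were made strand-specific, per the labels' protocols. The authors deposited 1 table of raw counts for each library, with 32545 gene identifiers, of which 9816 had no count. The build was Rnor_6.0 and the tools were STAR 2.5.3a, bcl2fastq 2.19.05, featureCounts, Subread and Trimmomatic, per the submitters' processing notes. The sources used here do not give the annotation release or the strand setting of the counting, so genes with near-identical copies or overlapping neighbours are uncertain.

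Groups and replicate numbers came from the titles. The deposited counts entered 1 model of the 6 groups in edgeR 4.0.16 under R 4.3.3 (quasi-likelihood, robust, TMM factors, filterByExpr, no covariate). The filter kept 14801 genes, with 99.9% of all counts. P values were adjusted by Benjamini-Hochberg over all tested genes, and 0.05 was the threshold. Each standard error was derived from a fold change and its test statistic. The biological coefficient of variation was 12.0%. CPM values carry the TMM factors, and a prior count of 2 was added for the log2 values behind the principal components. The test was checked on simulated counts. The rest was done with scipy 1.17.1, pandas 2.3.3 and numpy 2.4.6 under Python 3.11.15.

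Within each of the 3 groups compared the chi-square per degree of freedom between 2 libraries was 4.82 to 39.9, and each library was counted as 1 replicate. Deviations of same-numbered libraries of these 3 groups had a median correlation of -0.06, and no pairing was used. The genes named are the 2 per direction with the smallest p in each comparison, since 0 of the 32545 identifiers matched the 47357 rows of the reference table (assembly GRCr8). For the same reason gene lists, cell type markers, mitochondrial genes and sequences were not used. The members, lists and rules were chosen with earlier results of these data known. Alternatives were DESeq2 1.42.0, limma-voom (limma 3.58.1) with and without quality weights, DESeq2 size factors, other filters, covariates, references and thresholds, and each library left out in turn.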

Additional observations from a re-analysis of the deposited data

Results flagged for a closer look

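In groups of 5 rats, the highest or lowest value was compared with its neighbour, and a gap above 0.71 of the whole range was noted. Over 48 sets of values 5 such gaps were found. Chance gives about 1 in 20, or 2.4, in unselected sets, but many of these sets are genes picked for a small p in the same rats, so the numbers cannot be compared.

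On principal component 1, injured 3 week replicate 1 lay at 42.3 and the rest of the group between -12.9 and -0.446. This rat was already known to lie far from its group, and the component was computed with it. Its gap there is therefore no separate evidence. The same rat held 143 CPM of ENSRNOG00000001602, against 113 to 119 CPM in the other 4. Sham 1 week replicate 2 held 27.7 CPM of ENSRNOG00000015703, against 33.6 to 35.2 CPM in the other shams of that week. Sham 12 week replicate 2 had counts for 17776 genes, against 17448 to 17520 in the rest of its group. Sham 12 week replicate 1 held 39.6 CPM of ENSRNOG00000009730, against 44.0 to 45.5 CPM in the others.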

How the results depend on the processing

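The count of 0 genes at 3 weeks against both shams became 1 with DESeq2 and was 0 in the other alternatives run, including a threshold of 0.1 and each library left out (range 0 to 0, smallest edgeR adjusted p = 0.0718 without injured 3 week replicate 5). Without replicate 1 it was 0 in every alternative run. Against the other injured groups it was 1 with DESeq2 and 0 to 1 with each library left out, 1 without injured 1 week replicate 1. The number of genes with an unadjusted p under 0.05 moved more. Without the filter on low counts it was 1583 against both shams, 1170 without replicate 1 and 1134 against the other injured groups. With library size as a covariate the first was 800, and without injured 3 week replicate 1 it was 700. No gene named for its small p changed sign in the alternatives run for it, while the 4 genes described for replicate 1 were not put through them. The replicate number as a block left 0 calls in each comparison, with 1025, 690 and 551 genes at an unadjusted p under 0.05. Of 15 same-numbered pairs of libraries among the 3 groups compared, 2 had deviations correlated above 0.1 (median -0.06, against 0.01 for 60 other pairs). In 5 of 30 matches of a library to another of these groups, the library of the same number correlated best. The other injured groups were not examined in this way. The comparisons of totals, genes counted and top share passed the threshold in no alternative (exact permutation, adjusted p from 0.0779 to 0.992). A covariate for myelin genes and the share of mitochondrial genes were not run, since no gene could be named. Intervals were widest for genes under 1 CPM, where 33.2% lay within 2-fold with all 5 rats, and the part of depth in this was not tested.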

Other observations

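A few genes had 2 separate levels among the 30 rats. By a rule chosen after the values were seen (a gap of at least 4-fold between neighbouring rats, with at least 3 rats on each side), 4 of the 11173 genes with a mean of at least 5 CPM did so (0.0358%). ENSRNOG00000005826 held 14.8 to 29.3 CPM in 18 rats and 0.174 to 0.623 CPM in 12. The high level was found in 3 and 4 of 5 shams of weeks 1 and 12 and in 3, 2, 4 and 2 of 5 injured rats of weeks 1, 3, 6 and 12. ENSRNOG00000043197 held 10.7 to 33.2 CPM in 19 rats and 0 to 0.357 CPM in 11, with 3 of the 5 rats of week 3 at the high level. ENSRNOG00000055608 held 13.5 to 34.8 CPM in 23 rats and 0.843 to 1.39 CPM in 7, and replicate 1 was the single rat of week 3 at the low level. Both levels occurred within the injured 3 week group in 3 of the 4 genes, and within all 3 groups compared in 2. None of the 4 had an unadjusted p under 0.05 in the comparison with both shams. Their median standard error of the log2 fold change was 0.88, against 0.08 for the other genes at that level. Genes with a mean under 5 CPM were not searched by this rule. ENSRNOG00000060523, among the 1052 genes with an unadjusted p under 0.05, was such a gene. Both sham groups held rats with at most 1 read of it and rats with 38 reads or more.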
